A study of Homo sapiens with 8 samples.

Results

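A set of 7 genes of the ATP-binding cassette (ABC) family that export drugs and conjugates, ABCB1, ABCC1, ABCC2, ABCC3, ABCC4, ABCC5 and ABCG2, were read by their gene symbol from the RNA-seq tables of a human cholangiocarcinoma (CCA) experiment. They are 7 of the 56269 genes in the tables, and each of the 7 passed the filter on low values, which kept 16060 genes. The experiment treated 2 CCA cell lines, SNU1079 and SSP25, for 48 h with the BET protein degrader ARV825 (BETp), with the mTOR kinase inhibitor AZD8055 (mTORi), with both, or with vehicle. ARV825 is a bifunctional molecule that brings BET bromodomain proteins to cereblon, part of a ubiquitin ligase. The vehicle group received 0.01% DMSO, the BETp group 40 nM ARV825 and the mTORi group 50 nM AZD8055, while the labels give no doses for the combination. Each of the 8 libraries was 1 culture, so that a treatment had 2 libraries, 1 per line, and a line had 4. The labels give both lines a wildtype genotype and liver as the tissue, and each line stands for 1 tumor. The paper's targeted sequencing, however, lists IDH1 and ARID1A mutations in SNU1079. Tests used limma on log2(TPM + 1), where TPM is the length-scaled share of a gene's transcripts in its library, with the Benjamini-Hochberg adjustment over the 16060 genes, and a gene is called where its adjusted p lies below 0.05. How many reads lie behind a value cannot be told from TPM.

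ABC exporters are membrane pumps that use ATP to move substrates out of the cell against a gradient. In bile duct cells and hepatocytes they are divided between the apical membrane, which faces the bile, and the basolateral membrane, which faces the blood. ABCB1 (P-glycoprotein) and ABCG2 (breast cancer resistance protein) are apical pumps of wide substrate range and are best known for multidrug resistance. ABCC1, ABCC2 and ABCC3 (the multidrug resistance proteins MRP1, MRP2 and MRP3) carry glutathione, glucuronide and sulfate conjugates, with ABCC2 apical and ABCC1 and ABCC3 mainly basolateral. ABCC4 and ABCC5 (MRP4 and MRP5) also export cyclic nucleotides and nucleoside analogs.

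The genes lie on separate chromosomes. In GRCh37, the build the submitters name, ABCB1 spans chr7:87132333-87342639 on the minus strand with 28 exons and ABCG2 chr4:89011302-89152780 on the minus strand with 16 exons. ABCC1 spans chr16:16042995-16237114 (31 exons, plus strand), ABCC2 chr10:101542397-101612351 (32 exons, plus strand) and ABCC3 chr17:48712138-48769614 (31 exons, plus strand). ABCC4 spans chr13:95672089-95953729 (31 exons, minus strand) and ABCC5 chr3:183637722-183735727 (30 exons, minus strand). The TPM values sum the transcripts of each gene, so exons and isoforms were not separated.

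Promoter windows of 300 bases from RefSeq on GRCh38.p14 were matched for 5 of the 7 exporters, and 3 are shown: that of ABCC2, the exporter that the drug comparisons below turn on, and those of ABCB1 and ABCG2, which each reached 1 TPM in a single line. Capitals mark matches, on either strand, to the antioxidant response element core TGACNNNGC, the E-box CACGTG or the AP-1 site TGANTCA, and the ABCB1 and ABCG2 windows, of 2 and 5 listed, were picked after the matches had been seen. The windows lie at chr10:99782390-99782689 (plus strand), chr7:87600835-87601134 (minus strand) and chr4:88158860-88159159 (minus strand).
ABCC2: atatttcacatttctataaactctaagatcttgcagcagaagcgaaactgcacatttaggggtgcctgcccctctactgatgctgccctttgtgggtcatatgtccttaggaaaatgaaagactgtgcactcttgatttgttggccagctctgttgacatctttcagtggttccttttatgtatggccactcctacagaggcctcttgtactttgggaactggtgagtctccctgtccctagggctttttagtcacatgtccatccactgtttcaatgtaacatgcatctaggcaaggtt
ABCB1: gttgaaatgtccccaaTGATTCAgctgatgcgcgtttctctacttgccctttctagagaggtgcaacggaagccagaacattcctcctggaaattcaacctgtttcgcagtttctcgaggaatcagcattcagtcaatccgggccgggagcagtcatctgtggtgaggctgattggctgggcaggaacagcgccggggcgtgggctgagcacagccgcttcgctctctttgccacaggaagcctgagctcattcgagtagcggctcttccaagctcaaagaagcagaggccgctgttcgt
ABCG2: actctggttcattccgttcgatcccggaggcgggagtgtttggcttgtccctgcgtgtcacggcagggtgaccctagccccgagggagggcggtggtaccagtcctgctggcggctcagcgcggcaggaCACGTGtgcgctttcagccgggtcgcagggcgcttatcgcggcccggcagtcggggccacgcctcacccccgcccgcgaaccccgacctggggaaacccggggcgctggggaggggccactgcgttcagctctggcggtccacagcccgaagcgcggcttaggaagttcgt
The ABCC2 window held 1 CG dinucleotide, at percentile 3.96 of 35116 windows whose median was 14.0, and no match to any of the 3 motifs. The ABCB1 window held 16 CG dinucleotides and an AP-1 match at base 17. The ABCG2 window held 33 CG dinucleotides, at percentile 82.8, and an E-box match at base 130. In all windows together the AP-1 site matched 7.71%, the E-box 7.26% and the antioxidant response element core 13.3%, so a match by itself describes the letters of a window and no more.

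The libraries fell into 2 groups by cell line, with a correlation over genes of 0.975 to 0.986 for libraries of the same line, against 0.789 to 0.807 across lines. Between 13308 and 14526 genes reached 1 TPM, and no 2 libraries held identical values. Of 8 cholangiocyte markers, 7 in SNU1079 and 5 in SSP25 stood at 1 TPM or more in every library of the line. The duct keratin KRT7 was between 2909 and 3746 TPM in SNU1079 and between 404 and 812 TPM in SSP25, while the epithelial adhesion molecule EPCAM was between 59.7 and 101 TPM in SNU1079 and between 0.90 and 1.74 TPM in SSP25. The cadherin CDH1 stayed at or below 1.40 TPM in both lines. Of the lists for other cell types, 1 of 7 hepatocyte, 1 of 5 fibroblast and 1 of 4 leukocyte markers reached 1 TPM in every library of SNU1079, namely SERPINA1 (7.64 to 41.8 TPM), COL1A1 (272 to 1003 TPM) and CD68 (76.4 to 85.5 TPM), and in SSP25 CD68 alone did (141 to 210 TPM). The summed hepatocyte list spanned 8.89 to 46.9 TPM in SNU1079, against 0.15 to 0.69 TPM for SSP25, the fibroblast list 274 to 1004 against 1.71 to 4.74 TPM, and the leukocyte list 76.4 to 85.7 against 141 to 210 TPM. The defining markers albumin, COL1A2 and PTPRC were at or below 0.37 TPM in each library. The part of these markers in the line difference was not tested. The share of TPM on mitochondrial transcripts went from 14.4% under vehicle to 19.2% under the combination in SNU1079 and from 5.99% to 10.1% in SSP25.

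Among the exporters, the lines differed first in which broad-range multidrug pump they expressed. ABCB1 stood in SNU1079 at 16.91 TPM under vehicle, 17.14 under BETp, 10.06 under mTORi and 11.82 under the combination. In SSP25 the same gene stood at 0.09, 0.40, 0.08 and 0.02 TPM in that order. Every SNU1079 library was above every SSP25 library, and ABCB1 in SSP25 ranked between percentiles 5.21 and 10.4 of the tested genes. ABCG2 had the opposite pattern, with 57.66, 58.58, 49.30 and 35.62 TPM in SSP25 against 0.28, 0.12, 0.05 and 0.09 TPM in SNU1079. SSP25 therefore expressed ABCG2 with ABCB1 under 1 TPM in its 4 libraries, and SNU1079 expressed ABCB1 with ABCG2 under 1 TPM in its 4. The levels differed, with ABCG2 in SSP25 between percentiles 77.3 and 83.8 of the tested genes and ABCB1 in SNU1079 between 49.4 and 60.8.

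The conjugate pumps were expressed in both lines. ABCC3, the basolateral pump for glucuronides and bile acid conjugates, was the highest exporter of SNU1079, at 134.56, 134.84, 136.36 and 160.07 TPM under vehicle, BETp, mTORi and combination. In SSP25 it stood at 55.99, 55.22, 64.67 and 66.31 TPM. The SNU1079 mean of 141 ± 12.4 TPM (SD over 4 treatments) was 2.34 times the SSP25 mean of 60.5 ± 5.75, with no overlap. ABCC1, the basolateral glutathione-conjugate pump, was higher in SSP25, with 68.82, 73.80, 57.82 and 69.90 TPM there and 43.21, 43.97, 32.80 and 37.16 TPM in SNU1079, a ratio of means of 1.72 and no overlap. ABCC2, the apical conjugate pump, stood in SSP25 at 39.53, 34.64, 24.06 and 14.62 TPM, and in SNU1079 at 17.31, 13.24, 6.03 and 4.50. Here the lines overlapped, because SSP25 under the combination lay below SNU1079 under vehicle, although SSP25 was the higher line under each of the 4 treatments.

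The nucleotide exporters were both higher in SNU1079. ABCC4, which exports cyclic nucleotides and prostaglandins, stood there at 51.53, 40.13, 47.27 and 33.32 TPM under vehicle, BETp, mTORi and combination, and in SSP25 at 8.59, 6.71, 9.44 and 6.94 TPM. The ratio of means was 5.44, the widest among the 5 exporters expressed in both lines. For ABCC5 the SNU1079 libraries read 17.54, 18.45, 19.22 and 15.69 TPM and those of SSP25 8.38, 7.92, 9.72 and 8.21, a ratio of 2.07. For neither gene did the lines overlap.

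**Figure D1:**
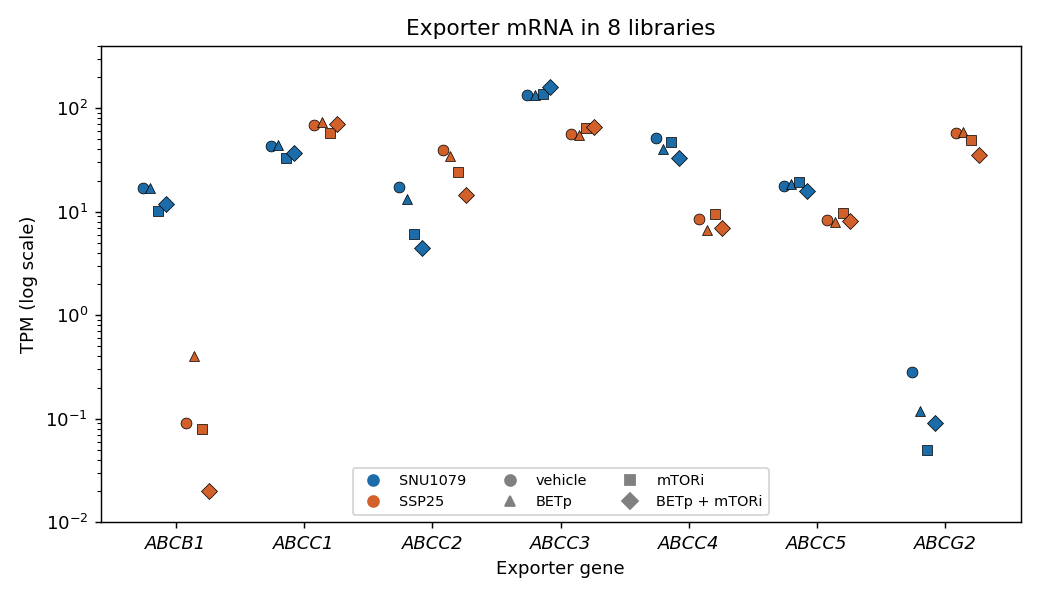
TPM of each exporter (log axis) in the 8 libraries, with color for the cell line and symbol for the treatment, 1 point per library. ABCB1 lies above 10 TPM in SNU1079 only and ABCG2 above 35 TPM in SSP25 only, while ABCC2 runs down from vehicle to combination in both lines.

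Ordered by mean TPM, SNU1079 expressed ABCC3, ABCC4 (43.1 ± 8.02), ABCC1 (39.3 ± 5.29), ABCC5 (17.7 ± 1.52), ABCB1 (14.0 ± 3.59), ABCC2 (10.3 ± 6.05) and ABCG2 (0.135 ± 0.101), with the SD over the 4 treatments. Within that order ABCC4 and ABCC1 overlapped, as did ABCC5, ABCB1 and ABCC2 in turn, whereas ABCC3 stood clear of the rest. SSP25 expressed ABCC1 (67.6 ± 6.85), ABCC3, ABCG2 (50.3 ± 10.6), ABCC2 (28.2 ± 11.1), ABCC5 (8.56 ± 0.798), ABCC4 (7.92 ± 1.31) and ABCB1 (0.148 ± 0.171). There the neighbors ABCC1 and ABCC3 overlapped, as did ABCC3 and ABCG2, ABCG2 and ABCC2, and ABCC5 and ABCC4. These overlaps compare ranges over treatments. Within every library of the line, ABCG2 was above ABCC2 in SSP25 and ABCC5 above ABCB1 in SNU1079. ABCC3 supplied 47.8% of the summed exporter TPM in SNU1079 under vehicle and 60.9% under the combination. In SSP25, ABCG2 supplied 24.1% under vehicle and 17.7% under the combination, and ABCC2 went from 16.5% to 7.25%. The summed TPM of the 7 genes was 281.34, 267.89, 251.79 and 262.65 in SNU1079 and 239.06, 237.27, 215.09 and 201.62 in SSP25, so the treated libraries of each line were below its vehicle library.

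**Figure D2:**
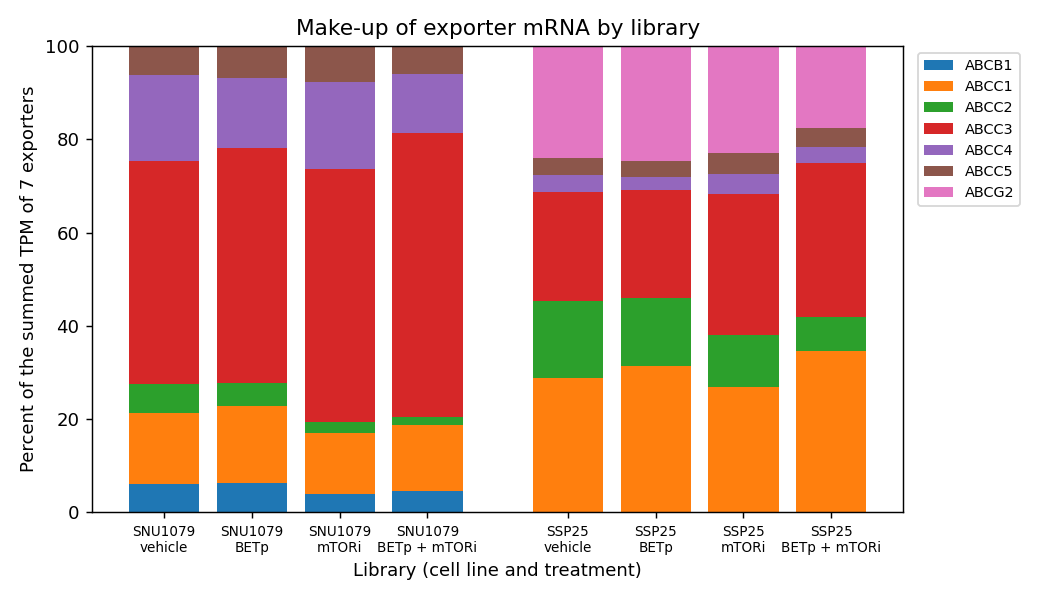
Share of each exporter in the summed TPM of the 7 exporters (percent, stacked to 100) in the 8 libraries. ABCC3 takes the most in each SNU1079 library, between 47.8% and 60.9%, and the ABCC2 segment is smallest under the combination in both lines, at 1.71% in SNU1079 and 7.25% in SSP25.

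The line difference was then tested across treatments, as SSP25 minus SNU1079 on the log2(TPM + 1) scale. The 7 exporters were all called, 3 higher and 4 lower in SSP25, where 74% of the 16060 genes tested were called. Higher in SSP25 were ABCG2 by 5.48 ± 0.14 (SE, adjusted p = 2.21e-07), ABCC2 by 1.45 ± 0.13 (adjusted p = 4.61e-05) and ABCC1 by 0.77 ± 0.08 (adjusted p = 8.02e-05). Lower in SSP25 were ABCB1 at -3.69 ± 0.15 (adjusted p = 1.30e-06), ABCC4 at -2.30 ± 0.10 (adjusted p = 1.60e-06), ABCC3 at -1.21 ± 0.07 (adjusted p = 6.61e-06) and ABCC5 at -0.97 ± 0.10 (adjusted p = 8.30e-05). ABCB1 and ABCG2 passed the filter through a single line each and so had to differ, and their values depend on the pseudocount, ABCB1 moving to -6.01 with a pseudocount of 0.1. The 4 libraries of a line were separate treatments, and the p-values measure how steady the difference was over treatments in 1 culture each.

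The drug comparisons, which ask how BET protein loss and mTOR inhibition change expression singly and together, centered on ABCC2. In SNU1079 it went from 17.31 TPM under vehicle to 13.24 under BETp (76.5% of vehicle), 6.03 under mTORi (34.8%) and 4.50 under the combination (26.0%). In SSP25 the steps were 39.53, 34.64 (87.6%), 24.06 (60.9%) and 14.62 TPM (37.0%). Both libraries that received mTORi were below both that did not, within each line, and the order vehicle, BETp, mTORi, combination held in each.

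Averaged over BETp, mTORi lowered ABCC2 by a log2 difference of -1.16 ± 0.12 (SE, adjusted p = 0.0290 in limma), and ABCC2 was the 1 exporter of 7 called, where 1.05% of genes were called. The value stood at percentile 0.187 of all genes tested, whose median was -0.11. Against vehicle, the combination gave -1.56 ± 0.18 (adjusted p = 0.0315), again with 1 exporter of 7 called and a background of 1.81%, and at percentile 0.349 around a median of -0.19. Neither call held after quantile normalization, which centers that median, with -1.05 (adjusted p = 0.0708) for mTORi and -1.35 (adjusted p = 0.0649) for the combination, or with no filter on low values (adjusted p = 0.114 and 0.115). The mTORi call was lost on leaving out any library except that of SSP25 under mTORi, and the combination call on leaving out any of the vehicle, BETp and combination libraries, with the differences between -1.29 and -1.09 and between -1.76 and -1.35. Both calls held without the mitochondrial transcripts, whose share moved with treatment. In these cultures, fewer cells with the transcript and less transcript per cell cannot be told apart.

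ABCC2 in the pairwise comparisons rests on 1 library a line and shares libraries between contrasts. BETp alone gave -0.27 ± 0.18 (adjusted p = 0.682) and mTORi alone -1.04 ± 0.18 (adjusted p = 0.413) against vehicle. The combination differed from BETp by -1.28 ± 0.18 (adjusted p = 0.277) and from mTORi by -0.52 ± 0.18 (adjusted p = 0.307). Among the exporters, 0 of 7 were called in each of these 4 comparisons, with 1, 2, 2 and 2 at an unadjusted p below 0.05. Over all 16060 genes, 1429, 1658, 1840 and 2145 lay below that unadjusted p, in the same order. Leaving out the SNU1079 vehicle library moved the BETp value to -0.07 and leaving out that of SSP25 moved it to -0.48, while the difference from mTORi moved to -0.77 without the SNU1079 and to -0.26 without the SSP25 mTORi library. The share of all genes called was 0.00623% for BETp, 0.0125% for mTORi, 0% for the combination against BETp and 0.0125% for the combination against mTORi.

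The combination was also set against both drugs acting independently. For ABCC2 in SNU1079 the single-drug levels multiply to 26.6% of vehicle and the combination stood at 26.0%, whereas in SSP25 they multiply to 53.3% and the combination stood at 37.0%. The departure from additivity over both lines was -0.24 ± 0.26 on the log2(TPM + 1) scale (adjusted p = 1.00 in limma). Of the exporters 0 of 7 were called, or had an unadjusted p below 0.05, in limma, against 0% of all genes called. At that unadjusted p there were 322 of all 16060 genes. The mTORi effect on ABCC2 was -1.38 ± 0.15 in SNU1079 (adjusted p = 0.0657) and -0.94 ± 0.15 in SSP25 (adjusted p = 0.0967) in a fit chosen after the values were seen. SSP25 minus SNU1079, that effect differed by 0.43 ± 0.21 (adjusted p = 0.422) and the BETp effect by -0.08 ± 0.21 (adjusted p = 0.924). For these line-by-drug differences 0 of 7 exporters were called or had an unadjusted p below 0.05 in limma, with 0% of all genes called for mTORi and 0.00623% for BETp. Of all 16060 genes, 2282 for mTORi and 1984 for BETp lay below that unadjusted p.

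**Figure D3:**
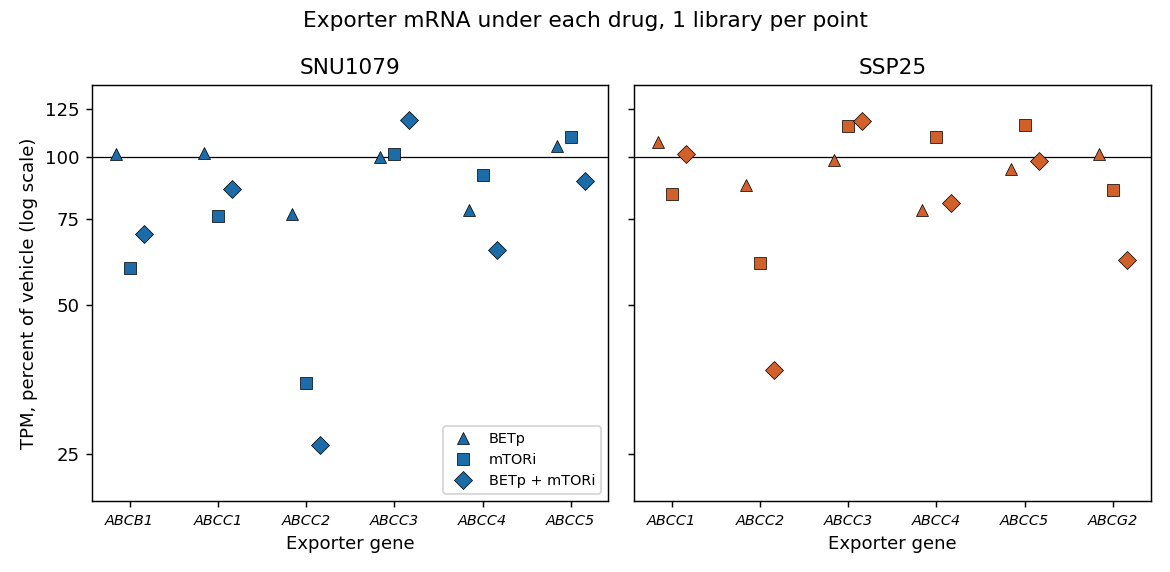
TPM of each exporter as percent of the vehicle library of the same line (log axis), 1 library per point, leaving out ABCB1 in SSP25 and ABCG2 in SNU1079, which were below 1 TPM. ABCC2 lies farthest below 100% in both lines, at 26.0% under the combination in SNU1079 and 37.0% in SSP25.

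Averaged over mTORi, BETp called 0 of 7 exporters in limma, with 2 at an unadjusted p below 0.05 and 1.82% of genes called. Over all genes tested, 3664 of 16060 had an unadjusted p below 0.05. Those nearest to a call were ABCC4 (-0.39 ± 0.09, adjusted p = 0.0675) and ABCC2 (-0.40 ± 0.12, adjusted p = 0.126). ABCC4 under BETp was at 77.9% of vehicle in SNU1079 and 78.1% in SSP25. Under the combination it was at 64.7% and 80.8%, and under mTORi at 91.7% and 109.9%. In each line both ABCC4 libraries with BETp were below both without it, while mTORi gave values on either side of vehicle. The mTORi value for ABCC4 was -0.05 ± 0.09 (adjusted p = 0.763) and took the other sign, at 0.08, after quantile normalization.

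The multidrug pumps had lower values under mTORi in the line that expressed them, without a call. ABCB1 in SNU1079 stood at 59.5% of vehicle under mTORi and at 69.9% under the combination, against 101% under BETp. Both libraries with mTORi were below both without it, and the mTORi effect within SNU1079 was -0.60 ± 0.17 (adjusted p = 0.138, in the fit chosen after the values were seen). ABCG2 in SSP25 stood at 85.5% under mTORi, 102% under BETp and 61.8% under the combination, where the single-drug levels multiply to 86.9%. Here too both libraries with mTORi were the lowest, with an effect within SSP25 of -0.46 ± 0.17 (adjusted p = 0.211 in limma), beside a median of -0.097 over all genes. How many of all genes show such an order was not counted, here or for ABCC2 and ABCC4 above. The ABCG2 effect within SSP25 moved to -0.70 without the SSP25 vehicle or mTORi library and to -0.22 without the SSP25 BETp or combination library. Over both lines mTORi gave -0.42 ± 0.14 for ABCB1 (adjusted p = 0.134) and -0.31 ± 0.13 for ABCG2 (adjusted p = 0.204), and these averages include the line in which the gene was under 1 TPM. BETp gave 0.13 ± 0.14 for ABCB1 (adjusted p = 0.609) and -0.14 ± 0.13 for ABCG2 (adjusted p = 0.530), and the combination -0.29 ± 0.21 (adjusted p = 0.413) and -0.46 ± 0.19 (adjusted p = 0.196). The ABCG2 combination value lay between -0.73 and -0.19 on leaving out the combination library of SNU1079 or of SSP25.

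The basolateral pumps ABCC3 and ABCC1 were not called under either drug or under both. ABCC3 was at 100.2% of vehicle under BETp, 101% under mTORi and 119% under the combination in SNU1079, and at 98.6%, 116% and 118% in SSP25. Its combination library was the highest of the 4 in each line, and the combination difference was 0.24 ± 0.10 (adjusted p = 0.185), with 0.18 ± 0.07 for mTORi (adjusted p = 0.170) and 0.06 ± 0.07 for BETp (adjusted p = 0.614). ABCC1 under mTORi was at 75.9% in SNU1079 and 84.0% in SSP25, the lowest library of each line, for a difference of -0.24 ± 0.07 (adjusted p = 0.117). Under BETp ABCC1 gave 0.14 ± 0.07 (adjusted p = 0.284). The combination value for ABCC1 was -0.10 ± 0.11 (adjusted p = 0.595), which became 0.13 after quantile normalization. ABCC5 stayed between 89.5% and 116% of vehicle, with -0.12 ± 0.10 for BETp (adjusted p = 0.468), 0.04 ± 0.10 for mTORi (adjusted p = 0.863) and -0.09 ± 0.14 when both were given (adjusted p = 0.697), the last turning to 0.14 after quantile normalization. For the combination ABCC4 gave -0.44 ± 0.14 (adjusted p = 0.112). The median over the 7 exporters was -0.12, -0.24 and -0.29 for BETp, mTORi and combination in that order, beside -0.08, -0.11 and -0.19 over all genes tested.

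**Figure D4:**
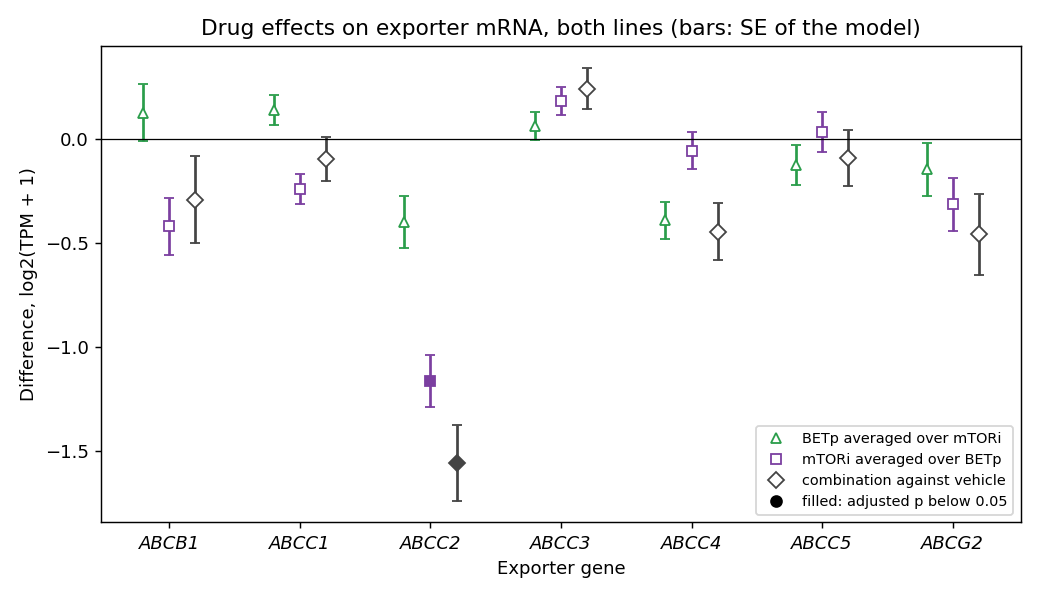
Log2(TPM + 1) difference of each exporter for BETp averaged over mTORi, mTORi averaged over BETp, and combination against vehicle, over both lines, with the SE of the limma model as bars and filled symbols where the adjusted p is below 0.05. The 2 filled symbols are ABCC2 under mTORi, at -1.16, and under the combination, at -1.56.

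The rest of the ABC family gave the setting for these values. Of 41 other ABC genes in the tables, 23 were tested. In the line difference 9 were higher and 9 lower in SSP25, or 78.3%, beside 74% of all genes, and 3 of the 23 were below 1 TPM in every library of a line. Among those called were ABCA3, a lipid transporter of secretory cells, which was lower by a log2 value of -3.75 ± 0.14, and TAP1, a peptide transporter of antigen presentation, which was higher by 1.27 ± 0.12. Under BETp, where 1.82% of all genes were called, 1 of 23 was called, ABCB9, a lysosomal peptide transporter, which fell by 0.58 ± 0.11 (adjusted p = 0.0446) and stood at 8.04 TPM under vehicle and 4.45 under BETp in SNU1079, beside 9.27 and 5.24 in SSP25. Under mTORi and under the combination, with 1.05% and 1.81% of all genes called, 0 of 23 were called in limma, with 11 and 6 at an unadjusted p below 0.05 and medians of -0.19 and -0.25. Of all 16060 genes, 3534 and 4148 lay below that unadjusted p.

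Enzymes that make the conjugates exported by ABCC1, ABCC2 and ABCC3 were examined next. Of 12 tested genes for glucuronide and sulfate conjugation, 2 fell under BETp, 2 under mTORi and 3 under the combination, and 0 rose. UGT1A1 and UGT1A6 were the 2 under each single drug and were 2 of the 3 under the combination. As these 2 genes share exons, their calls do not count as separate ones. Over all genes 1.82%, 1.05% and 1.81% were called in these comparisons, with 218 of 292, 142 of 168 and 244 of 291 calls lower. UGT1A1, the bilirubin glucuronosyltransferase, stood in SNU1079 at 13.84, 7.38, 6.79 and 2.61 TPM under vehicle, BETp, mTORi and combination, and in SSP25 at 7, 3.85, 4.80 and 1.87. Vehicle was the highest and the combination the lowest library in each line. UGT1A1 fell by 1.76 ± 0.20 under the combination (adjusted p = 0.0315), by 0.92 ± 0.14 under BETp (adjusted p = 0.0301) and by 0.84 ± 0.14 under mTORi (adjusted p = 0.0428). UGT1A6, a phenol glucuronosyltransferase, fell by 1.63 ± 0.19 under the combination (adjusted p = 0.0315), but UGT1A genes share their last exons, so reads cannot be assigned to one of them with certainty. SULT1C2, a sulfotransferase, fell by 1.72 ± 0.28 under the combination (adjusted p = 0.0438).

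For the lists that follow, the shares of all genes called were again 1.82% under BETp, 1.05% under mTORi and 1.81% under the combination. Lists this short hold too few genes to set a count of 0 or 1 against those shares, and no set test was run. The alternative settings were read for single genes among the exporters only. How well the calls of other genes hold was therefore not tested, which includes ABCB9, UGT1A1, UGT1A6 and SULT1C2 above. Of 15 tested genes for glutathione synthesis and transfer, GSR, which regenerates reduced glutathione, fell by 0.39 ± 0.07 under mTORi (adjusted p = 0.0488), and MGST2, a microsomal glutathione transferase, fell by 0.83 ± 0.15 under the combination (adjusted p = 0.0481). Under BETp 0 of the 15 were called in limma, with 3 at an unadjusted p below 0.05. Of 10 uptake transporters tested, the nucleoside carrier SLC29A1 fell by 0.46 ± 0.07 under BETp (adjusted p = 0.0349). Of 5 other efflux genes, ATP8B1, a canalicular phospholipid flippase, fell by 0.53 ± 0.08 under BETp (adjusted p = 0.0369) and by 0.87 ± 0.13 under the combination (adjusted p = 0.0416). Of 24 tested regulators of exporter genes, which include NFE2L2, AHR, VDR and RXRA, and of 9 tested scaffold proteins of the apical membrane, 0 were called under BETp, mTORi or the combination in limma. At an unadjusted p below 0.05 there were 6, 4 and 7 regulators and 4, 5 and 3 scaffold proteins in those comparisons. Over all 16060 genes the counts at that unadjusted p were 3664, 3534 and 4148.

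Patterns over the 8 libraries, after the mean of the line was taken from each log2(TPM + 1) value, were compared with those of 10642 genes as a description. The genes most like ABCC2 were ATP5A1 (Pearson r = 0.997), TRIM26 (0.994) and DDIT4 (0.991). Those most like ABCB1 were ANO8 (0.992), PTPRS (0.991) and ALAS1 (0.983), and those most like ABCG2 were PRKCDBP (0.991), HNRNPUL2-BSCL2 (0.982) and ENDOG (0.979). Among exporter pairs the highest values were ABCB1 with ABCC1 (0.830), ABCB1 with ABCC2 (0.791) and ABCC2 with ABCG2 (0.780), and the lowest was ABCC2 with ABCC3 (-0.810). The points share libraries and their scaling, and many genes were searched. For ABCB1 the SSP25 points lay at or below 0.40 TPM, and for ABCG2 the SNU1079 points at or below 0.28 TPM. Each of the highest exporter pairs holds ABCB1 or ABCG2, so its value rests mainly on the libraries of a single line for that gene.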

How the data were processed

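Total RNA of 8 cultures was made into stranded (dUTP) libraries and sequenced. The authors deposited TPM per gene, 1 table per line. The submitters' processing notes name GRCh37, DESeq2 and edgeR, while an aligner and annotation were not given in the sources used here. DESeq2 and edgeR need counts and were not run. The deposited TPM values were tested with limma 3.58.1 in R 4.3.3 on log2(TPM + 1), two-sided, with an intensity trend. The filter kept genes that reached 1 TPM in 2 libraries (16060 of 56269), without weights, imputation or dropped libraries. A fold on this scale understates the change of low genes.

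Models held treatment and line (3 residual degrees of freedom), line and both drugs (4), or line-by-drug terms (2). The line was the block, as both lines received every treatment. No treatment was repeated within a line, so the spread between replicate cultures was not measured. In the drug comparisons over both lines, the residual holds disagreement between the lines, which cannot be told apart from culture noise. With line and both drugs in the model, it also holds departure from additivity. With line-by-drug terms, it holds departure from additivity within each line and the same noise. Effects within a line were added after the values were seen. The exporters and gene lists were chosen with earlier results of these data known. All exporters are named in each main comparison. From the other lists, called members are named, up to 4 a direction by adjusted p for the lines and up to 6 for drugs, and in the text a subset of these. For the genes most like an exporter, the rule takes the 3 highest correlations among genes of mean TPM 5 or more. Scripts were tested on simulated data. Gene positions come from GENCODE lifted to GRCh37. Alternatives were a pseudocount of 0.1, a filter at 5 TPM or none, quantile normalization, no mitochondrial transcripts, no block and leaving out each library.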

Additional observations from a re-analysis of the deposited data

How the results depend on the processing

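The line difference called 7 of 7 exporters in every alternative run for it, including those that left out 1 library. Over all genes it called 9142 of 11772 with the filter at 5 TPM, 11737 of 16060 with quantile normalization and 13078 of 29421 with no filter. ABCB1 and ABCG2, each under 1 TPM in every library of a line, had to differ. With no filter, with quantile normalization or with no replicate block, 0 exporters were called under mTORi averaged over BETp, and 0 under the combination against vehicle. Leaving out 1 library gave 0 to 1 in both comparisons. Without the cell line as block, ABCC2 gave -1.16 (adjusted p = 1.00) and -1.56 (adjusted p = 1), and no gene was called. The numbers pair the libraries by cell line. The ABCC2 calls held with a pseudocount of 0.1, a filter at 5 TPM and no mitochondrial transcripts. The effects of mTORi on ABCC2 within SNU1079 and within SSP25 passed with the filter at 5 TPM (adjusted p = 0.0151 and 0.0350 in limma). That was 1 of 5 alternatives that kept all libraries, and neither effect passed in the other alternatives, in the main fit or on leaving out a library. Leaving out 1 library, the effect lay between -1.38 and -1.37 in SNU1079 and between -1.19 and -0.69 in SSP25. Signs turned for values near 0. After quantile normalization, ABCC4 under mTORi gave 0.080, ABCC1 under the combination 0.13, ABCC5 under the combination 0.14, and the line difference in the BETp effect on ABCC2 0.00066. Leaving out 1 library, ABCC4 under mTORi ranged from -0.11 to 0.0055 (without the SNU1079 combination library), ABCC5 under mTORi from -0.0087 (without the SSP25 mTORi library) to 0.11, the departure of ABCC2 from additivity from -0.50 to 0.010 (without the SSP25 mTORi library), and the line difference in its BETp effect from -0.32 to 0.17 (without the SSP25 mTORi or combination library). The causes were not tested. Of 533 alternative values of single exporters, 503 kept their direction and side of the threshold, which includes the line differences and values that were not called at the start. Another 19 lost a call, and these were all ABCC2 under mTORi or the combination. The mTORi call passed in 1 of 8 leave-one-out runs and 3 of 6 other alternatives, and the combination call in 2 of 8 and 3 of 6. Over all genes, the 168 called under mTORi became 18 with a pseudocount of 0.1, 2 with no filter, 483 with a filter at 5 TPM, 9 with quantile normalization, 49 without mitochondrial transcripts and 1 to 7 without 1 library. The 291 called under the combination became 86, 2, 657, 21, 89 and 0 to 145, and the 292 under BETp became 202, 21, 476, 175, 154 and 37 to 227. Depth is unknown in TPM, and 2 libraries a treatment limit what could be called.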

Other observations

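Levels of conjugating enzymes, apical scaffold proteins and regulators in the lines are given as a description. Between the lines 74% of all genes tested were called, 5745 higher and 6136 lower in SSP25, and most of these lists lay near that share. Lists this short hold too few genes to set their counts or directions against those of all genes, and no set test was run. Genes below 1 TPM in every library of a line passed the filter through the other line and so had to differ. Of 15 tested genes for glutathione synthesis and transfer, 11 were higher and 1 lower in SSP25, with 1 of the 15 below 1 TPM in every library of a line. That 1 was MGST1, a microsomal glutathione transferase, which stood between 989 and 1195 TPM in SSP25 and between 0 and 0.17 TPM in SNU1079. GSR stood between 123 and 188 TPM in SSP25 and between 40.4 and 71.2 TPM in SNU1079. Of 12 genes for glucuronide and sulfate conjugation, 2 were higher and 7 lower in SSP25, with 4 of the 12 below 1 TPM in every library of a line. UGT1A9, of those 4, stood between 81.3 and 178 TPM in SNU1079 and at or below 0.32 TPM in SSP25, with the shared UGT1A exons as a limit. SULT1A1, a phenol sulfotransferase with near-identical copies, stood between 72.6 and 106 TPM in SNU1079 and between 2.58 and 6.70 TPM in SSP25. Its values are uncertain where reads match those copies.

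Of 9 apical scaffold proteins, 5 were higher and 3 lower in SSP25, with 1 of the 9, PDZK1, below 1 TPM in every library of a line. PDZK1, a PDZ adaptor that binds apical transporters, stood in SNU1079 at 43.53 TPM under vehicle, 15.71 under BETp, 29.16 under mTORi and 10.62 under the combination, and at or below 0.82 TPM in SSP25. It was not called under BETp, mTORi or the combination, which gave -1.15 ± 0.38 over both lines (adjusted p = 0.122 in limma). MYO5B, the motor of apical recycling endosomes, stood between 36.2 and 56.3 TPM in SNU1079 and between 0.66 and 2.59 TPM in SSP25. EZR, which links membrane proteins to actin, was among the 5 higher in SSP25, at 255 to 298 TPM against 85.2 to 122 TPM, as were SLC9A3R2, RDX and MSN. Of 24 regulators of exporter genes, 8 were higher and 10 lower in SSP25, with 3 of the 24 below 1 TPM in every library of a line. NFE2L2, the transcription factor of the antioxidant response, stood between 53.8 and 67.0 TPM in SSP25 and between 146 and 164 TPM in SNU1079.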
